A study of Mus musculus with 16 samples.

Results

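The genes described here are Mitf, its relatives Tfeb, Tfe3 and Tfec, and Gpnmb, which the family is known to activate. They were chosen by their measured log2 values, since Mitf and Gpnmb differed between the treated and control macrophages of this series, so the difference between those groups is given below as a description and without a test. A gene was included when the array held a probe set annotated to that symbol alone. This gave 4 genes on 5 probe sets, of 12394 genes in all. Mitf has 2 probe sets, Tfeb, Tfec and Gpnmb have 1 each, and Tfe3 was not analysed here.

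The series measured RNA in macrophages sorted from mouse gliomas, on 16 arrays with 1 mouse each. All mice were Nestin-Tv-a;Ink4a/Arf-/- on a mixed background. They lack the Ink4a/Arf tumour suppressor locus, and Nestin-expressing cells carry the receptor for RCAS retroviruses. DF-1 chicken cells releasing RCAS-PDGF-B-HA virus were injected into the brain at 5 to 6 weeks of age. Mice whose tumour measured 4.5 to 40 mm3 on MRI received either BLZ945, which blocks the kinase of the CSF-1 receptor (200 mg, body weight not stated), or its captisol vehicle by daily gavage for 7 days. Cells carrying CD11b but not Gr.1 were then sorted, and 75 ng of total RNA was labelled per mouse. The Vehicle group had 4 female and 4 male mice, and the BLZ945 group 5 female and 3 male mice. The labelled ages were 11.29 weeks (4 Vehicle and 4 BLZ945 mice), 13.14 weeks (4 BLZ945 mice), and 12.29 and 11.43 weeks (the other 4 Vehicle mice). Values are log2 intensities on the authors' scale, so a difference of 1 is a doubling, and they are compared only within a probe set.

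Mitf, Tfeb, Tfe3 and Tfec encode the MiT/TFE transcription factors, which bind DNA as dimers through a basic helix-loop-helix leucine zipper. Mitf is best known as the master regulator of pigment cells and is also needed for osteoclasts, which are made from the same precursors as macrophages. Tfeb and Tfe3 drive genes of the lysosome and of autophagy; the kinase mTORC1 holds them in the cytoplasm when nutrients are plentiful. Tfec is expressed mostly in myeloid cells. Gpnmb is a transmembrane glycoprotein found on lysosomes, melanosomes and the surface of macrophages that have taken up lipid or debris. CSF-1 signalling acts on Mitf and Tfe3 proteins in osteoclast precursors, and an array of RNA does not measure the location or modification of these proteins.

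The family binds the E-box CACGTG, the M-box core CATGTG and, for lysosomal genes, the longer CLEAR element. These letters, with the M-box heptamer TCATGTG, were searched on both strands of RefSeq promoter windows of build GRCm38.p6, from 250 bases before to 50 bases after each gene's start. The heptamer contains the M-box core and the CLEAR element contains the E-box core, so those counts overlap. Among 32851 windows, 14.2% held CATGTG, 7.15% held CACGTG, 3.77% held TCATGTG and 0.326% held the CLEAR element. None of these motifs was present in the windows of Mitf (3 windows), Tfeb (3), Tfe3 (2), Tfec (1) or Gpnmb (1). The Gpnmb window did hold an AP-1 motif (TGANTCA, in 7.81% of windows), which was searched after the sequence had been seen, as did 1 window of Tfe3. A match here is a description of letters and not a measured binding site.

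Shown are the window of Gpnmb and those of a lysosomal gene that was higher and an osteoclast gene that was lower in treated macrophages, Ctsf and Acp5. The windows are chr6:49036268-49036567 (plus strand) for Gpnmb, chr19:4854915-4855214 (plus strand) for Ctsf and chr9:22130549-22130848 (minus strand) for Acp5, each written 5′ to 3′ along its gene. Capitals mark the AP-1 motif in Gpnmb, the E-box core in Ctsf, and in Acp5 the M-box core read from the opposite strand. The Acp5 window is 1 of 3 for that gene, and the other two hold none of the motifs.
Gpnmb: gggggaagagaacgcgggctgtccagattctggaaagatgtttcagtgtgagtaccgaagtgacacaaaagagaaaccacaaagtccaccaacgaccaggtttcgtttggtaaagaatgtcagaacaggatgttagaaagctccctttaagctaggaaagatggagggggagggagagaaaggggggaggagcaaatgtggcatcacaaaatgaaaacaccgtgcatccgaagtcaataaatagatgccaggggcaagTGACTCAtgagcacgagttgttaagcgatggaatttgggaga
Ctsf: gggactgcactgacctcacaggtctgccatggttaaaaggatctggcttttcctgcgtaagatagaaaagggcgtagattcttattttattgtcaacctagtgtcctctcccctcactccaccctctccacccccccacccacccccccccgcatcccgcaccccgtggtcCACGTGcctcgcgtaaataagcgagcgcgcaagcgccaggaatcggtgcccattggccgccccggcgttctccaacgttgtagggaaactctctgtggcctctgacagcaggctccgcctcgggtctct
Acp5: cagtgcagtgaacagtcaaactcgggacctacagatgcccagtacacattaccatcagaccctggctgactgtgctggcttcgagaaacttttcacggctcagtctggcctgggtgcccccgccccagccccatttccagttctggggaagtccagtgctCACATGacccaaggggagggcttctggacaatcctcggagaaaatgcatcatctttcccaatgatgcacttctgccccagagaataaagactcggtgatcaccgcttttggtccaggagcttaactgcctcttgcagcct

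Several properties of the mice and arrays differed between or within the groups. The labelled initial tumour volume, without a unit, ran from 11.9 to 27.3 in the 6 Vehicle mice that have one and from 41.3 to 132.3 in the 8 BLZ945 mice, so volume and agent cannot be told apart. If the label is in mm3, all 8 BLZ945 values exceed the enrolment limit of 40, so what the label measures is not settled. The SD of an array's log2 values, a measure of its contrast, was 2.39 ± 0.07 in Vehicle and 2.33 ± 0.08 in BLZ945 (SD, n = 8 each). Csf1r and C1qa, which mark macrophages, were at 13.61 ± 0.14 and a mean of 13.54 in Vehicle. Csf1r was at 13.66 ± 0.12 in BLZ945 (limma adjusted p = 0.73). Of 15 macrophage and microglia markers, 3 fell (Itgam, Tmem119 and P2ry12) and 0 rose; the mean of the list ran from 11.73 to 12.30 in Vehicle and from 11.50 to 12.07 in BLZ945. Itgam encodes CD11b, the protein used for the sort, and its RNA fell by 1.17 (SE 0.26, adjusted p = 0.00807). That call was lost with the age cohort as covariate (-0.81, limma adjusted p = 0.25) and among mice of 11.29 weeks alone (0.306). It was also lost in females alone (-1.22, adjusted p = 0.0723) and in males alone (-1.21, adjusted p = 0.287). Of 9 glioma and oligodendrocyte precursor markers, 5 fell (Pdgfra, Olig1, Olig2, Fabp7 and Ptprz1), and their list mean ran from 6.18 to 7.77 in Vehicle and from 5.01 to 6.71 in BLZ945. In these bulk samples, fewer cells of a type and less RNA per cell cannot be told apart. Of 6 melanocyte markers limma called 0, with 2 at an unadjusted p under 0.05 and a list mean of 3.76 to 4.53 in Vehicle and 4.07 to 4.58 in BLZ945. One of 5 osteoclast markers (Acp5) and 1 of 6 astrocyte markers (Gja1) fell, and limma called 0 in the neutrophil, lymphocyte, dendritic cell, oligodendrocyte, neuron and endothelium lists; with the melanocyte list, these held 11 of 46 genes at an unadjusted p under 0.05. Over all genes 22.6% were under 0.05 unadjusted between agents, so 11 of 46 is near that share. The lists were not alike. The lymphocyte list held 6 of its 9 genes, all higher in BLZ945 (among them Gzmb by 1.31 and Nkg7 by 1.03). The dendritic cell list held 2 of 5, the endothelium list 1 of 7, and the neutrophil, oligodendrocyte and neuron lists 0. The part of these markers in the results below was not tested.

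Mitf RNA was about 2-fold higher in macrophages of BLZ945 mice by both of its probe sets. On the first probe set the 8 Vehicle mice ran from 8.17 to 9.25 with a median of 8.58, and the 8 BLZ945 mice from 8.91 to 10.29 with a median of 9.88. Of the BLZ945 mice, 6 lay above every Vehicle mouse, while BLZ945 4 (8.91) and BLZ945 1 (9.21) lay within the Vehicle range. The means were 8.67 ± 0.37 and 9.74 ± 0.50 (SD), a difference of 1.07 (SE 0.20) or 2.10-fold. The second probe set ran from 4.33 to 5.50 (median 5.06) in Vehicle and from 5.63 to 6.62 (median 5.91) in BLZ945, a difference of 1.05 (SE 0.19). On it every BLZ945 mouse lay above every Vehicle mouse; as background, 0.247% of the 22690 probe sets separated the groups in that direction. The probe sets thus gave like group differences, but they ordered the mice differently. BLZ945 1, next to lowest of its group on the first, was next to highest on the second (6.53), and BLZ945 6, highest on the first, was next to lowest on the second (5.67). Within groups their correlation was 0.359 in Vehicle and -0.383 in BLZ945 (Pearson, n = 8, exact permutation, adjusted p = 0.55 for each).

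Tfeb, the family member best known for lysosomal genes, was higher on average in BLZ945 mice, with overlapping groups. Vehicle mice ran from 6.44 to 7.43 (median 6.86) and BLZ945 mice from 6.93 to 8.00 (median 7.26). The means were 6.86 ± 0.32 and 7.33 ± 0.35 (SD, n = 8 each), a difference of 0.47 (SE 0.16) or 1.38-fold. Only 3 BLZ945 mice lay above every Vehicle mouse, with BLZ945 4 the highest at 8.00, and Vehicle 2 (7.43) lay above 5 of the 8 BLZ945 mice. The difference of the means was 0.25 when the array SD was added as a covariate and 0.30 in males alone.

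Tfec varied most among mice of 1 group and did not separate the agents. Vehicle mice ran from 5.26 to 8.01 (median 6.36) and BLZ945 mice from 4.24 to 7.83 (median 5.55). The means were 6.39 ± 1.02 and 5.87 ± 1.18 (SD, n = 8 each), a difference of -0.52 (SE 0.48). Vehicle 7 (8.01), Vehicle 5 (7.33), BLZ945 6 (7.83) and BLZ945 7 (7.41) were high, and 0 BLZ945 mice lay above every Vehicle mouse. The difference was -0.01 with the array SD as covariate, -0.69 in females alone and 0.09 in males alone.

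Gpnmb had the widest difference of these genes. Vehicle mice ran from 7.51 to 9.57 (median 9.02) and BLZ945 mice from 9.50 to 11.37 (median 10.76). The means were 8.77 ± 0.65 and 10.46 ± 0.77 (SD, n = 8 each), a difference of 1.69 (SE 0.32) or 3.22-fold. The groups met at a single mouse: Vehicle 1 (9.57) lay above BLZ945 3 (9.50) and BLZ945 1 (9.56), and the other 7 Vehicle mice lay below every BLZ945 mouse. Vehicle 3 was lowest at 7.51, though its Mitf (9.03) was the next to highest of its group. When each mouse was left out in turn, the difference ran from 1.51 to 1.83 for Gpnmb, 0.99 to 1.19 for Mitf, 0.37 to 0.55 for Tfeb and -0.80 to -0.29 for Tfec. The ends for Tfec came without BLZ945 6 (-0.80) and without Vehicle 7 or BLZ945 4 (-0.29 each).

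**Figure D1:**
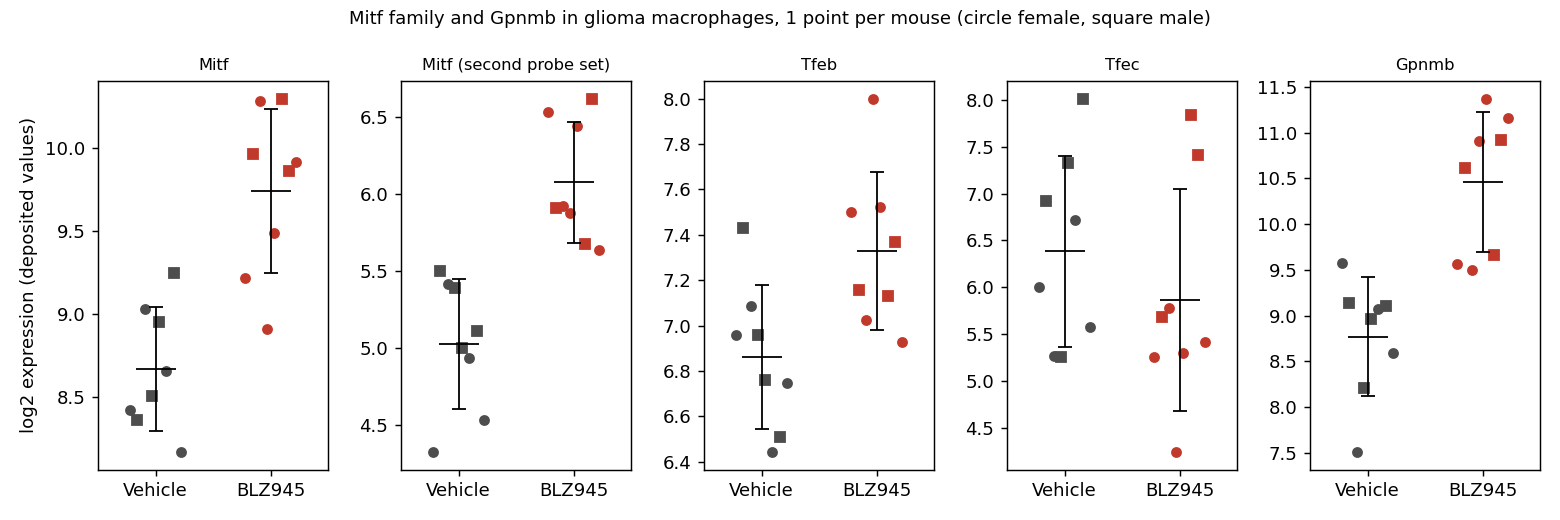
Log2 intensity of each probe set in the 8 Vehicle and 8 BLZ945 mice, with circles for females, squares for males, and the mean ± SD of each group. The second Mitf probe set separates the groups, Mitf, Tfeb and Gpnmb are higher on average in BLZ945 with overlap, and Tfec spreads from 4.24 to 8.01 across both groups.

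Age divided the BLZ945 mice into 4 of 13.14 weeks and 4 of 11.29 weeks, a contrast that played no part in choosing the genes. Gpnmb had the widest difference between them. The older mice were at 10.91, 11.37, 10.92 and 11.16, and the younger mice at 9.56, 10.61, 9.50 and 9.67. Every older mouse lay above every younger one (11.09 ± 0.22 against 9.83 ± 0.52, SD, n = 4 each; exact two-sided permutation p = 0.0286, the smallest that 70 splits can give). Such a separation was not rare, since 4.6% of all genes were higher in every older mouse. In limma over all genes the difference was 1.25 (SE 0.25, 95% interval 0.71 to 1.80) and missed the threshold after Benjamini-Hochberg adjustment (adjusted p = 0.141).

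Mitf did not follow Gpnmb across the ages. Its first probe set was lower in the older mice by a mean of -0.40 (SE 0.29, adjusted p = 0.455), with values of 8.91 to 9.91 against 9.21 to 10.29, and the second differed by 0.13 (exact permutation p = 0.743, n = 4 each). Tfeb differed by 0.25 (SE 0.22, adjusted p = 0.539) and Tfec by -0.55 (SE 0.66, adjusted p = 0.654). Limma called 0 of these 4 genes by age, against 0.0403% of all genes, and 1 of them had an unadjusted p under 0.05, against 18.7% of all genes. The older mice also had a lower array SD, 2.28 against 2.38; with that SD as a covariate, an alternative chosen after seeing the data, Gpnmb differed by 1.33 (SE 0.33, adjusted p = 0.319).

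At 11.29 weeks, the age that held both agents, the agents can be compared without the older mice. The 4 Vehicle mice were at 8.21, 8.97, 9.08 and 9.11 for Gpnmb, below all 4 BLZ945 mice of that age; as background, 4.05% of all genes separated these mice in that direction. Their means were 8.84 ± 0.42 and 9.83 ± 0.52 (SD), so the difference between agents was 0.99, against 1.69 over all mice. Mitf kept its size, at 1.10 on the first probe set (8.84 ± 0.33 against 9.94 ± 0.51) and 0.90 on the second. At this age Tfeb differed by 0.53 and Tfec by -0.69.

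**Figure D2:**
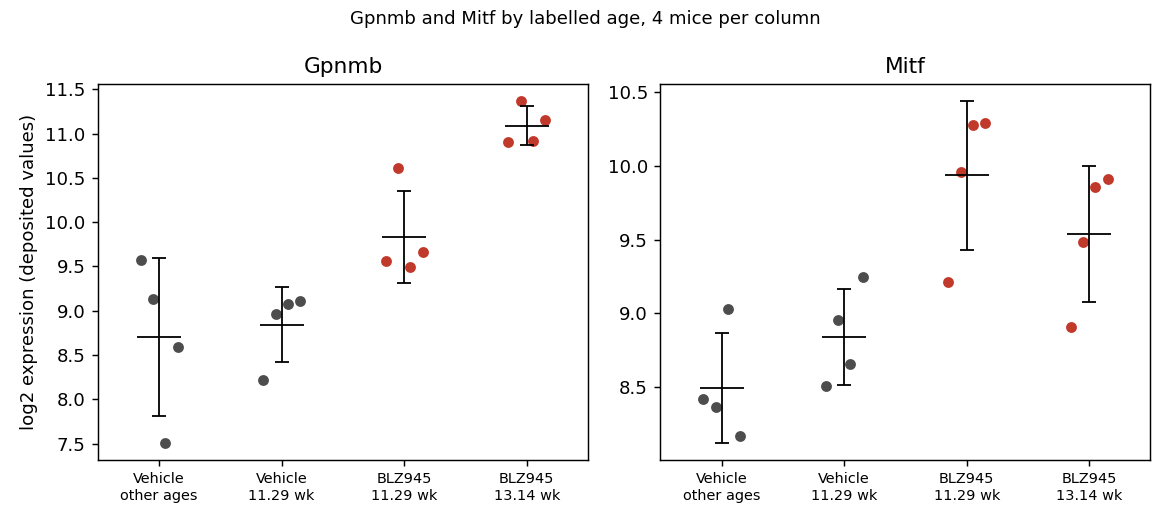
Log2 intensity of Gpnmb and Mitf in 4 sets of 4 mice: Vehicle mice of other ages, Vehicle mice of 11.29 weeks, BLZ945 mice of 11.29 weeks and BLZ945 mice of 13.14 weeks. Gpnmb has means of 8.84, 9.83 and 11.09 in the last 3 sets, while Mitf has means of 8.84, 9.94 and 9.54.

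Sex was compared with the agent as a covariate. Tfec was the gene with the widest difference, and it was higher in males by 1.37 (SE 0.38, 95% interval 0.56 to 2.18), which missed the threshold (limma adjusted p = 0.484). In Vehicle mice the 4 females were at 6.00, 5.26, 6.72 and 5.58 and the 4 males at 6.92, 5.26, 7.33 and 8.01. In BLZ945 mice the females ran from 4.24 to 5.78 (n = 5) and the males from 5.69 to 7.83 (n = 3). The sexes overlapped in both groups through 1 low male in each, Vehicle 4 at 5.26 and BLZ945 2 at 5.69. Adding the array SD as a covariate, chosen after seeing the data, gave Tfec 1.05 (SE 0.36, adjusted p = 0.604). Males minus females gave Mitf 0.33 (SE 0.20, adjusted p = 0.559), Tfeb -0.03 (SE 0.17, adjusted p = 0.947) and Gpnmb 0.04 (SE 0.33, adjusted p = 0.968). Limma called 0 of the 4 genes by sex, against 0.0323% of all genes, and 1 had an unadjusted p under 0.05, against 9.8% of all genes.

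No test found that the difference between agents depended on sex. The interaction was 0.28 (SE 0.40) for Mitf, -0.28 (SE 0.34) for Tfeb, 0.79 (SE 0.77) for Tfec and -0.27 (SE 0.67) for Gpnmb, with limma adjusted p-values of 0.983 to 0.988. Those standard errors leave room for interactions of the size of the agent differences themselves. Within BLZ945, the slope per doubling of that labelled volume, whose meaning is not settled, was 0.68 (SE 0.38, adjusted p = 0.725) for Gpnmb and 0.48 (SE 0.26, adjusted p = 0.715) for Mitf. It was 0.56 (SE 0.63, adjusted p = 0.82) for Tfec and -0.40 (SE 0.19, adjusted p = 0.711) for Tfeb. In both fits limma called 0 of the 4 genes and 0 of all genes (a background of 0%). In both, 0 of the 4 had an unadjusted p under 0.05, against 3.34% of all genes for the interaction and 6.83% for the volume slope.

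Within each group, the genes were compared with each other and with the array SD, in 24 relations over 8 mice each, with exact permutation p-values adjusted over the 24. In these relations Mitf is its first probe set unless the second is named. The second was compared only with the first and with the array SD. No relation of Mitf and Gpnmb passed the threshold in either group, and its sign changed with the alternative. They had r = -0.2 (p = 0.643) in Vehicle and r = -0.333 (p = 0.413) in BLZ945, by exact permutation. After the slope on array SD was removed from both genes, r was -0.438 in Vehicle and 0.464 in BLZ945 (exact permutation, adjusted p = 0.549 for each). Without the 2 BLZ945 mice farthest from the median of Mitf, r of Mitf and Gpnmb was -0.924 (exact permutation p = 0.00694, adjusted p = 0.167). In Vehicle, leaving out 2 mice by the same rule gave r = 0.105 (exact permutation, adjusted p = 0.893). Mitf and Tfec had r = 0.711 in BLZ945 (exact permutation p = 0.0474, adjusted p = 0.189) and 0.495 in Vehicle.

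The first Mitf probe set and Tfeb ran opposite to each other in BLZ945 mice, with r = -0.892 (exact permutation p = 0.00248, adjusted p = 0.0298) and rho = -0.81 (adjusted p = 0.0871). The second Mitf probe set, which ordered the mice differently, was not compared with Tfeb, so the relation is known for 1 probe set only. BLZ945 4 had the lowest Mitf (8.91) and the highest Tfeb (8.00) of its group. Without the 2 mice farthest from the median of Mitf, r was -0.713 (exact permutation p = 0.103, n = 6), so the call did not hold without them; the fewer mice and narrower range were not weighed apart. In Vehicle mice r was -0.363 (exact permutation, adjusted p = 0.55).

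The array SD moved with both genes, in opposite directions. With Mitf its correlation was 0.932 in BLZ945 (exact permutation p = 0.000818, adjusted p = 0.0196; rho 0.976) and 0.77 in Vehicle (adjusted p = 0.152). With Tfeb it was -0.858 in BLZ945 (exact permutation p = 0.00469, adjusted p = 0.0375; rho -0.833) and -0.821 in Vehicle (adjusted p = 0.0717). Without the 2 mice farthest from the median of the array SD these BLZ945 values were 0.875 (adjusted p = 0.311) and -0.848 (adjusted p = 0.325), with 6 mice left. After the slope on array SD was removed from both genes, Mitf and Tfeb had r = -0.495 in BLZ945 (exact permutation, adjusted p = 0.549). In Vehicle the sign was the other way, with r = 0.739 (exact permutation p = 0.0369, adjusted p = 0.319). The other probe sets moved with it less: over all 16 mice, with each group's mean subtracted, r was 0.867 for Mitf and -0.841 for Tfeb, against 0.609 for Tfec, -0.254 for Gpnmb and -0.259 for the second Mitf probe set. With the array SD as covariate the agents differed by 1.36 in Mitf, 1.55 in Gpnmb and 0.25 in Tfeb.

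**Figure D3:**
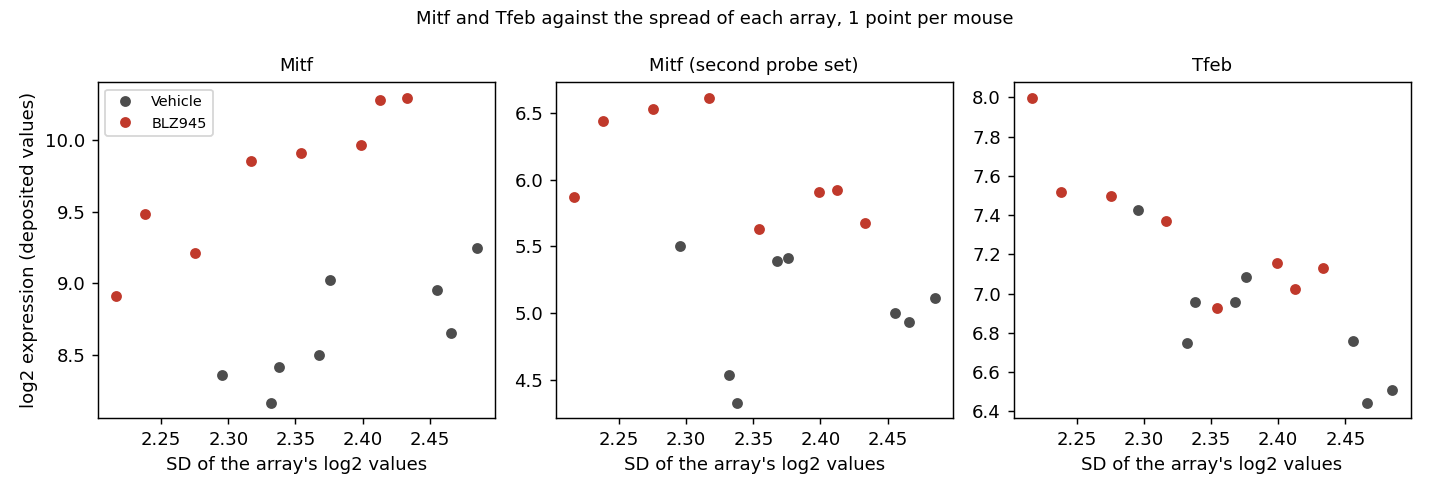
Log2 intensity of Mitf, the second Mitf probe set and Tfeb against the SD of the array's log2 values, for 8 Vehicle and 8 BLZ945 mice. Mitf is higher and Tfeb lower where the array SD is high (r = 0.932 and -0.858 in BLZ945), and BLZ945 mice lie above Vehicle mice of like array SD for both Mitf probe sets.

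The genes most like Mitf and Gpnmb were ranked by Pearson's r over 16 mice, after each group's mean was subtracted from each gene. For Mitf (first probe set) these were Crebrf (r = 0.923), Cyp4v3 (0.914), Tmem140 (0.909), Arhgap12 (0.904) and Ints12 (0.888). Each of these also followed the array SD, with r from 0.724 to 0.95. Cyp4v3, a fatty acid hydroxylase, rose from 8.85 ± 0.33 to 10.01 ± 0.36 (SD, n = 8 each), by 1.16 (SE 0.17, limma adjusted p = 0.000304), with every BLZ945 mouse above every Vehicle mouse. Crebrf, at 0.64 (adjusted p = 0.124), and Tmem140, at 0.75 (adjusted p = 0.0709), passed without BLZ945 4 (0.0269 and 0.0195). Arhgap12 differed by 0.02 (adjusted p = 0.947) and Ints12 by 0.01. With the array SD as covariate, limma called Crebrf (0.99, adjusted p = 0.000538), Tmem140 (1.09, adjusted p = 0.000447) and Arhgap12 (0.31, adjusted p = 0.0227). That setting called 1644 of all 12394 genes, against 984 in the main fit. These genes were picked from the same data and followed the array SD, so their calls with it as covariate are not a separate test.

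For Gpnmb the ranking gave Mmp8 (r = 0.789), Gadd45b (0.764), Eif4ebp1 (0.76), Plod2 (0.755) and Dab2 (0.755), and their r with the array SD ran from -0.527 to 0.0287. These genes differed between agents in either direction. Dab2, an endocytic adaptor, fell by 1.17 (SE 0.27, adjusted p = 0.0115), from 9.77 ± 0.54 to 8.60 ± 0.67, while Gpnmb was higher. Among mice of 11.29 weeks alone that difference was -1.85 (adjusted p = 0.00349). Gadd45b, a stress-response gene, differed by 0.63 (adjusted p = 0.0995), and passed with sex as covariate (0.0479) and with the replicate number as a block (0.0236). Mmp8, Eif4ebp1 and Plod2 differed by -0.19, -0.21 and -0.15 (adjusted p = 0.604, 0.442 and 0.596).

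The wider pathway was followed in 10 lists of 211 genes, of which 177 were measured, without the genes described above. Between agents 14 of them rose (background 2.6% of all genes) and 5 fell (background 5.34%), so 10.7% were called against 7.94% of all genes. Their median difference was 0.117 and that of all genes 0.0744, and 121 of 177 differences were above 0. Because the lists were chosen with earlier results of these data known, their counts here and below describe the lists and do not test them. Settings that act on the array contrast gave other counts: repeated quantile normalization gave 23 higher and 4 lower, and the array SD as a covariate 29 higher and 5 lower. Over all 12394 genes those called higher also went up, from 322 to 488 and 866, so the rise was not particular to the lists. Among the mice of 11.29 weeks alone, limma called 0 pathway genes, against 89 of all genes. There 28 pathway genes had an unadjusted p under 0.05, without a share over all genes to set beside them. With the age cohort as covariate limma called 2 pathway genes higher and 2 lower, against 215 of all genes. Leaving out 1 mouse gave 10 to 19 higher and 3 to 6 lower, with 3 lower without BLZ945 2, 4, 5 or 8 or Vehicle 2 or 7.

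Lysosomal genes, the classic targets of Tfeb and Tfe3, held 7 of the 14. Of 35 measured hydrolases and lysosomal membrane proteins 7 rose (background 2.6% of all genes) and 0 fell (background 5.34%), with a median difference of 0.207. Ctsf, a lysosomal cysteine protease, rose from 7.33 ± 0.58 to 8.40 ± 0.40 (SD, n = 8 each), by 1.07 (SE 0.23, limma adjusted p = 0.0064), with 7 BLZ945 mice above every Vehicle mouse. Idua, which degrades glycosaminoglycans, rose by 0.56 (adjusted p = 0.00215), Hexa, a subunit of beta-hexosaminidase, by 0.48 (adjusted p = 0.009), and Lipa, the lysosomal acid lipase, by 0.63 (adjusted p = 0.00922). The others were Glb1 (0.61), Scarb2 (0.40) and Ctsa (0.41), named after their values were seen. Of 17 subunits of the proton pump that acidifies lysosomes, 1 rose: Atp6v1b2, by 0.54 (adjusted p = 0.0107). Among mice of 11.29 weeks alone Ctsf differed by 0.79 (limma adjusted p = 0.24), Idua by 0.65 (0.0631) and Hexa by 0.38 (0.264). Lipa then differed by 0.44 (0.338) and Atp6v1b2 by 0.41 (0.287). With the age cohort as covariate Idua kept its call (0.028), while Ctsf, Hexa, Lipa and Atp6v1b2 lost theirs (0.161 to 0.29). Motifs were about as frequent in called as in other lysosomal genes: the M-box or E-box core was in 4 of the 7 (57.1%: Ctsf, Glb1, Scarb2 and Ctsa) and in 15 of 24 matched lysosomal genes that were not called (62.5%). Among all genes 22.7% held one, so both shares of lysosomal genes lay above it.

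Upstream of the family, 0 of 20 regulators were called by limma, with 3 at an unadjusted p under 0.05 (22.6% of all genes were), and their median difference was 0.0132. Mcoln1, the lysosomal calcium channel that acts on Tfeb, differed by 0.52 (SE 0.17, adjusted p = 0.0707) and passed with the array SD as covariate (0.00316) or without BLZ945 4 (0.0099) or Vehicle 7 (0.0381). Flcn, which controls mTORC1 action on Tfeb and Tfe3, differed by 0.57 (SE 0.19, adjusted p = 0.0742) and passed under the same conditions (0.00526, 0.0401 and 0.0349). With the age cohort as covariate Mcoln1 differed by 0.39 (limma adjusted p = 0.438) and Flcn by 0.40 (0.506). Among mice of 11.29 weeks alone their adjusted p-values were 0.285 and 0.447. Of 13 cofactors and regulators of the Mitf gene, 1 rose, the AP-1 gene Fos, by 0.49 (SE 0.15, adjusted p = 0.0463). That call was lost without any 1 of the 8 BLZ945 mice or without Vehicle 3, 4, 5 or 6 (adjusted p = 0.0517 to 0.0869).

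Among the 15 other genes with the same kind of DNA-binding domain, limma called 0, with 2 at an unadjusted p under 0.05, fewer than the 22.6% of all genes would give. Mnt, a repressor of Myc target genes, differed by 0.46 (SE 0.14, adjusted p = 0.0562) and Mlxip by 0.35 (adjusted p = 0.158). Mnt passed without BLZ945 3 (0.0417), BLZ945 6 (0.0268) or Vehicle 3 (0.027). Of 23 autophagy genes limma called 0, with 7 at an unadjusted p under 0.05 (22.6% of all genes were) and a median difference of 0.115. The kinase Ulk1 differed by 0.42 (adjusted p = 0.0618) and passed without BLZ945 6 (0.0233) or Vehicle 3 (0.0276). Gabarapl1, an autophagosome protein, differed by 0.45 (adjusted p = 0.0745) and passed without BLZ945 6 (0.0203).

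Genes that Mitf is known to drive in other cell types were called about as often as all genes, at 8.33% of the osteoclast list and 10% of the pigment cell list against 7.94%. Of 12 osteoclast genes, 0 rose and 1 fell, Acp5, the acid phosphatase by which osteoclasts are stained, from 8.28 ± 0.91 to 7.04 ± 0.63 (SD, n = 8 each). It fell by 1.24 (SE 0.35, adjusted p = 0.0328), a call lost without BLZ945 2, 3, 4, 5 or 8 or Vehicle 2, 5 or 7 (0.051 to 0.0667). Of 20 pigment cell genes 1 rose and 1 fell. Ednrb, the endothelin receptor of the melanocyte lineage, fell by 0.92 (SE 0.17, adjusted p = 0.00181), and with its probe sets averaged it differed by -0.51 (adjusted p = 0.0297). It is dim, at 5.15 ± 0.30 in Vehicle and 4.23 ± 0.39 in BLZ945 (SD, n = 8 each). Its call was lost among mice of 11.29 weeks alone (-1.08, adjusted p = 0.0647) and in males alone (-0.95, adjusted p = 0.279). Hif1a, the hypoxia factor, rose by 0.47 (SE 0.14, adjusted p = 0.0394), a call lost without BLZ945 3, 5, 7 or 8 or Vehicle 2, 4, 5, 7 or 8 (0.0591 to 0.0817).

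Of 11 genes encoding the relative of Gpnmb and its partners, 0 rose and 1 fell. Adam10, the protease that cuts Gpnmb from the cell surface, fell by 0.55 (SE 0.13, adjusted p = 0.0121), a call lost when all probe sets of the gene were averaged (0.0713) and in males alone, where it differed by -0.24. That call was also lost with the age cohort as covariate (-0.38, adjusted p = 0.296) and among mice of 11.29 weeks alone (-0.38, adjusted p = 0.286). Cd44 and Sdc4, described as receptors of Gpnmb, gave differences of 0.38 (adjusted p = 0.548) and -0.26 (adjusted p = 0.693), both unstable. That of Cd44 ran from 0.17 to 0.54 when 1 mouse was left out. That of Sdc4 was above 0 with the array SD as covariate (0.01) and in males alone (0.12). Pmel, the closest relative of Gpnmb, differed by 0.18 (adjusted p = 0.451), from 4.46 ± 0.30 to 4.64 ± 0.25.

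Genes of lipid-laden macrophages, in which Gpnmb is a usual marker, gave the largest called share of the lists, 35.3% against 7.94% of all genes. Of 17 measured, 4 rose (background 2.6%) and 2 fell (background 5.34%), with a median difference of 0.36. This list too was chosen with earlier results of these data known, so its share is not a test. Lpl, which releases fatty acids from lipoproteins, ran from 10.88 to 12.12 (median 11.76) in Vehicle and from 12.61 to 13.35 (median 13.09) in BLZ945, with no overlap, and rose by 1.42 (SE 0.18, limma adjusted p = 0.000124). As background, 0.315% of all genes separated the groups in that direction and 1.04% in the other. Abcg1 and Abca1, which export cholesterol, rose by 0.81 (SE 0.12, adjusted p = 0.000405) and 0.56 (SE 0.12, adjusted p = 0.00677), also with no overlap. The call of Abca1 was lost when its probe sets were averaged (0.139). The lipid receptor Trem2 rose by 0.75 (adjusted p = 0.0346), while Lgals1, a galectin, fell by 1.01 (SE 0.24, adjusted p = 0.0144) and Mmp14 by 0.95 (adjusted p = 0.0394); Trem2 and Mmp14 are named after their values were seen. Among mice of 11.29 weeks alone Lpl differed by 1.36 (adjusted p = 0.0533) and Abcg1 by 0.66 (adjusted p = 0.0878). Abca1 then differed by 0.37 (adjusted p = 0.249) and Lgals1 by -1.01 (adjusted p = 0.119).

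**Figure D4:**
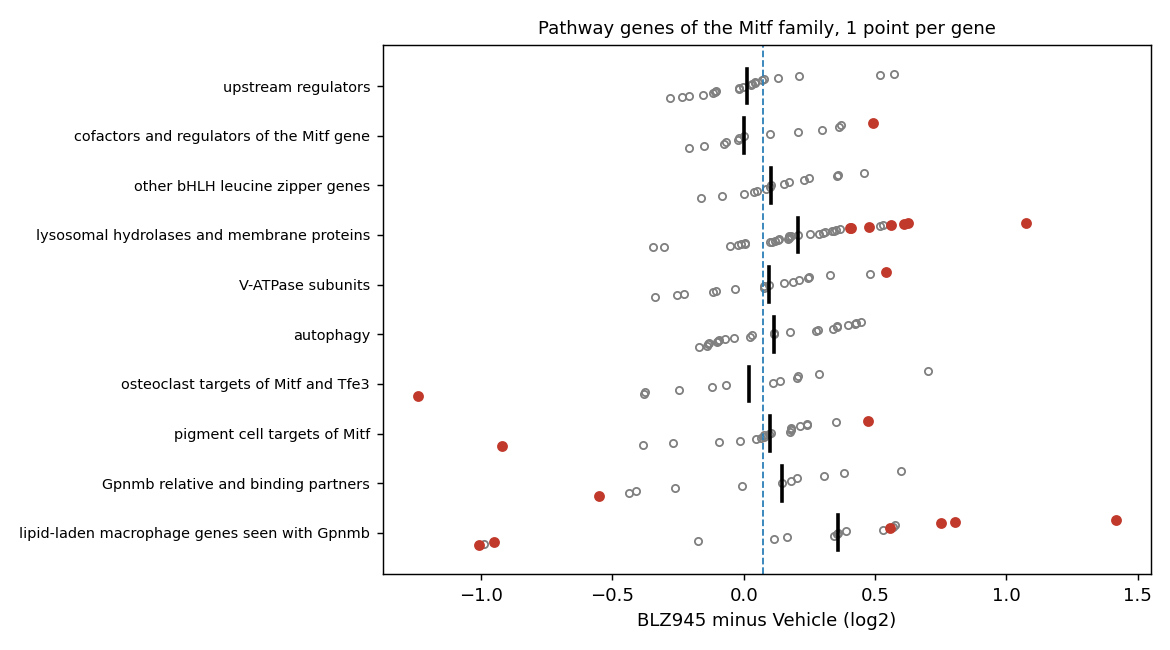
Difference in log2 intensity between BLZ945 and Vehicle for each measured gene of the 10 lists, with red points for an adjusted p under 0.05, a black bar at the median of each list and a blue dashed line at the median of all genes (0.0744). The red points lie mostly to the side of higher BLZ945 in the lysosomal list (7 of 35) and the lipid list (4 of 17), and Acp5 is the lowest point at -1.24.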

How the data were processed

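RNA of CD11b+ Gr.1- macrophages from 16 mice was measured on Affymetrix 3' arrays. The authors deposited log2 values, 1 for each probe set of each array. Per the submitters' processing notes GCOS 1.4 and RMA were used, with roles, annotation and build not stated. RMA compresses differences of dim probe sets, scanner intensities were not analysed here, and precision is limited by the 16 arrays.

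Of 22690 probe sets, 20393 had 1 symbol in the platform annotation, 691 several and 1606 none; 20364 of the first were found in a RefSeq gene table, and 0 symbols changed. The probe set with the highest mean stood for each of 12394 genes. Groups came from the sample labels; the highest correlation between 2 arrays was 0.991, so none was counted as a repeat. All fits used limma 3.58.1 in R 4.3.3 over all genes with Benjamini-Hochberg adjustment and a threshold of 0.05. Fits for age and volume used the 8 BLZ945 mice; that for sex had the agent as covariate. SE and intervals (95%) are limma's. Correlations used scipy 1.17.1 and all 40320 pairings. The fits were tested on simulated data.

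The member genes and lists were chosen with earlier results of these data known. Named genes are the member genes, the called genes of smallest p in each list (up to 4, or the leading 2 where none was called), partners of Gpnmb, Csf1r and Itgam, the 5 most like Mitf or Gpnmb, and the 2 brightest genes of each marker list. Alternatives covered probe sets, normalization, dim genes (the lowest 30% left out), eBayes settings, covariates, subsets, a replicate block and leaving out each mouse.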

Additional observations from a re-analysis of the deposited data

How the results depend on the processing

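Member genes kept the sign of their difference between agents under every alternative run, except Tfec, which was 0.09 in males alone, and no alternative moved one by more than the SD pooled over both groups, though Gpnmb came close, at 0.99 with the age cohort as covariate (a shift of 0.697 against an SD of 0.71). Pathway genes called (14 higher, 5 lower) were 23 higher with quantile normalization repeated and 29 higher with the array SD as covariate. Over all 12394 genes those called higher went from 322 to 488 and 866. Pathway calls were 2 higher and 2 lower with the age cohort as covariate (215 of all genes called) and 4 higher and 2 lower in females (393 of all genes). Both in males and in mice of 11.29 weeks, where fewer mice entered, they were 0 and 0. Limma called 2 and 89 of all genes there, so 0 in males says little. At limma's unadjusted p under 0.05 there were 23 and 28 pathway genes, without a share over all genes to set beside them. Without 1 mouse the counts ran from 10 to 19 higher and from 3 to 6 lower. The counts of member genes called by age, sex, interaction and volume were 0 in all alternatives run. In BLZ945, correlations missing the threshold were Mitf with Tfeb by rho (-0.81), without 2 mice (-0.713) and with array SD removed (-0.495), array SD with Mitf without 2 mice (0.875), and array SD with Tfeb by rho (-0.833) and without 2 mice (-0.848). Replicate numbers did not pair the mice: same-numbered mice correlated from -0.481 to 0.394, and 2 BLZ945 mice correlated best with their own number. With the replicate number as a block, 13 pathway genes were higher and 6 lower, and 873 genes were called against 984; in that fit Hif1a lost its call (adjusted p = 0.0657) and Flcn passed (0.0307).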
